A study of Mus musculus with 12 samples.

Results

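The RNA of 10 mouse genes that carry glucose into cells and through glycolysis to lactate was followed in kidneys with and without ischemia–reperfusion (I/R) injury, in mice with and without a floxed deletion of ALR (gene Gfer) in the proximal tubule. The genes were taken by name from the 55487 identifiers of the count table: the glucose transporter Slc2a1, the hexokinases Hk1 and Hk2, the phosphofructokinases Pfkl and Pfkp, the regulator Pfkfb3, the aldolase Aldoa, the pyruvate kinase Pkm, the lactate dehydrogenase Ldha and the lactate exporter Slc16a3. All 10 had counts in every library. The 12 libraries, each labelled as a separate sample of kidney cortex, formed 4 groups of 3. Ctrl were sham-operated ALR flox/flox mice, which the labels call WT. PT-KO were sham-operated ALR flox/flox/Ggt1-Cre mice, which the labels call ALR knockdown. Ctrl+I/R and PT-KO+I/R were the same genotypes after 22 min of bilateral renal ischemia and 24 h of reperfusion. According to the methods, the mice were 6 to 8 weeks old and of C57BL/6 background, and both genotypes carried the floxed allele. Ggt1-Cre drives recombination in proximal tubular cells, whereas the RNA came from all cells of the cortex. Every p-value below measures the spread between these libraries.

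Glycolysis splits glucose into pyruvate and yields a small amount of ATP without oxygen. When pyruvate is turned into lactate and exported, the pathway can run without mitochondria. Healthy proximal tubules live mainly on fatty acids and make glucose rather than burn it, whereas more distal segments use glucose. HIF-1, the transcription factor stabilised by low oxygen, and MYC are known to raise many of the genes studied here.

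The libraries held 12165089 to 23123693 counts. Gfer, the targeted gene, was not lower in the libraries labelled as knockout. It had 186 to 260 counts in Ctrl, 158 to 318 in PT-KO, 278 to 383 in Ctrl+I/R and 253 to 512 in PT-KO+I/R. The log2 difference of PT-KO from Ctrl was 0.13 ± 0.20 (SE, edgeR adjusted p = 0.761), and that of PT-KO+I/R from Ctrl+I/R was 0.32 ± 0.13 (edgeR adjusted p = 0.0723; without Ctrl+I/R 2, 0.40, edgeR adjusted p = 0.0401). The counts thus do not show the deletion, and PT-KO, PT-KO+I/R and "the knockout" stand throughout for the libraries labelled so. Ctrl 1 and Ctrl 2 held 22402 and 19755 counts of Xist, which is expressed in female cells, and no counts of 4 Y-linked genes, whereas the other 10 libraries held at most 11 Xist counts. For the 10 genes, the changes that passed in the control genotype, and the interactions that passed, are therefore also given with sex in the model. That model leaves Ctrl 3 as the male control. Some changes that did not pass are given so as well. For Ctrl 3 only the column name gives the group. Markers of the proximal tubule summed to 13400 to 15200 CPM without I/R, so the labelled tissue was present. Levels are given in CPM, counts scaled to the library's total after TMM normalization.

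The 250 bases before the annotated start sites of these genes were searched for the core of the hypoxia response element, ACGTG on either strand (CACGT when read on the other), which also lies within the E-box CACGTG bound by MYC. ACGTG was in 9 of 16 windows, which belong to 7 of the 10 genes, and in 16.6% of all 32851 mouse windows of this length. CACGTG was in 6.02% of all windows and in those of Ldha and Pfkfb3. Below, sites are given 5′ to 3′ with their flanks in lower case and the match in capitals, for 5 of the genes that rose after I/R. Aldoa and Pkm also held a match. The Aldoa windows with a match overlap and share the same site, so the windows counted above are not all independent. Sequences and start sites are from RefSeq on GRCm38.p6. A match describes the sequence only.
Slc2a1, chr4:119108697-119108725, plus strand: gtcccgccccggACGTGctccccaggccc
Hk2, chr6:82774490-82774518, minus strand: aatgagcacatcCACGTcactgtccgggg
Pfkfb3, chr2:11553973-11554001, minus strand: ctccgcgccgtgACGTGccaagctgtgac
Pfkfb3, second start site, chr2:11502127-11502155, minus strand: cacccttctctcCACGTGaaagggggctg
Ldha, chr7:46845744-46845772, plus strand: cggcccagcctaCACGTGggttcccgcac
Slc16a3, chr11:120949028-120949056, plus strand: caggcagcggtgACGTGcgcgggggacgt

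For Hk2, which rose most in the knockout, the whole window is shown (chr6:82774455-82774704, minus strand, ending at the base before the start site). It holds both ACGTG matches of the gene.
Hk2 upstream: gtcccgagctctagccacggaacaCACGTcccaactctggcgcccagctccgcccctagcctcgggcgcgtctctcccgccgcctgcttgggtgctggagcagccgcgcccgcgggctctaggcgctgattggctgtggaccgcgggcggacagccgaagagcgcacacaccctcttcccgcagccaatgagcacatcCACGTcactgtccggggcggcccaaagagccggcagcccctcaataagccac
No ACGTG was found in the windows of Hk1, Pfkl and Pfkp. 

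Without injury the 10 genes ranged widely in level. Per kilobase of the main transcript, Aldoa was highest in Ctrl with a mean of 387 CPM, followed by Ldha with 281 and Pkm with 92.8. Hk1, the hexokinase of most tissues, stood at 31.6 CPM per kb, Pfkl at 17.0, Pfkp at 14.9, Slc2a1 at 14.0 and Pfkfb3 at 6.32. The values of Pfkl, Pfkp and Slc2a1 lie within the spread of their libraries, so their order is not settled. Hk2, the inducible hexokinase of muscle and tumours, was at 0.166 CPM per kb and Slc16a3 at 0.0787. Both were near the limit of detection without injury, Hk2 with 5 to 32 counts and Slc16a3 with 4 to 11.

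In the control genotype, I/R raised Hk2, Slc16a3 and Pfkp, while the transporter Slc2a1 and the abundant enzymes did not pass the test. Thus 3 of the 10 genes were called higher at an edgeR adjusted p under 0.05 and none lower, where 11.4% of the 15567 genes tested were called higher and 7.97% lower (19.4% in all). Overlap between the groups was absent for 4 of the 10, against 43.7% of all genes. The median log2 fold change was 0.28 over the 10 genes and -0.01 over all genes tested. In the knockout genotype, I/R changed 9 of the 10: 8 rose and Pfkl fell, and only Hk1 did not pass. In that comparison 32.9% of 15155 genes were called higher and 32.7% lower (65.5% in all), overlap was absent for 9 of the 10 and for 70.8% of all genes, and the medians were 0.71 and 0.01. The plots of CPM by library and of fold changes show these patterns.

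**Figure D1:**
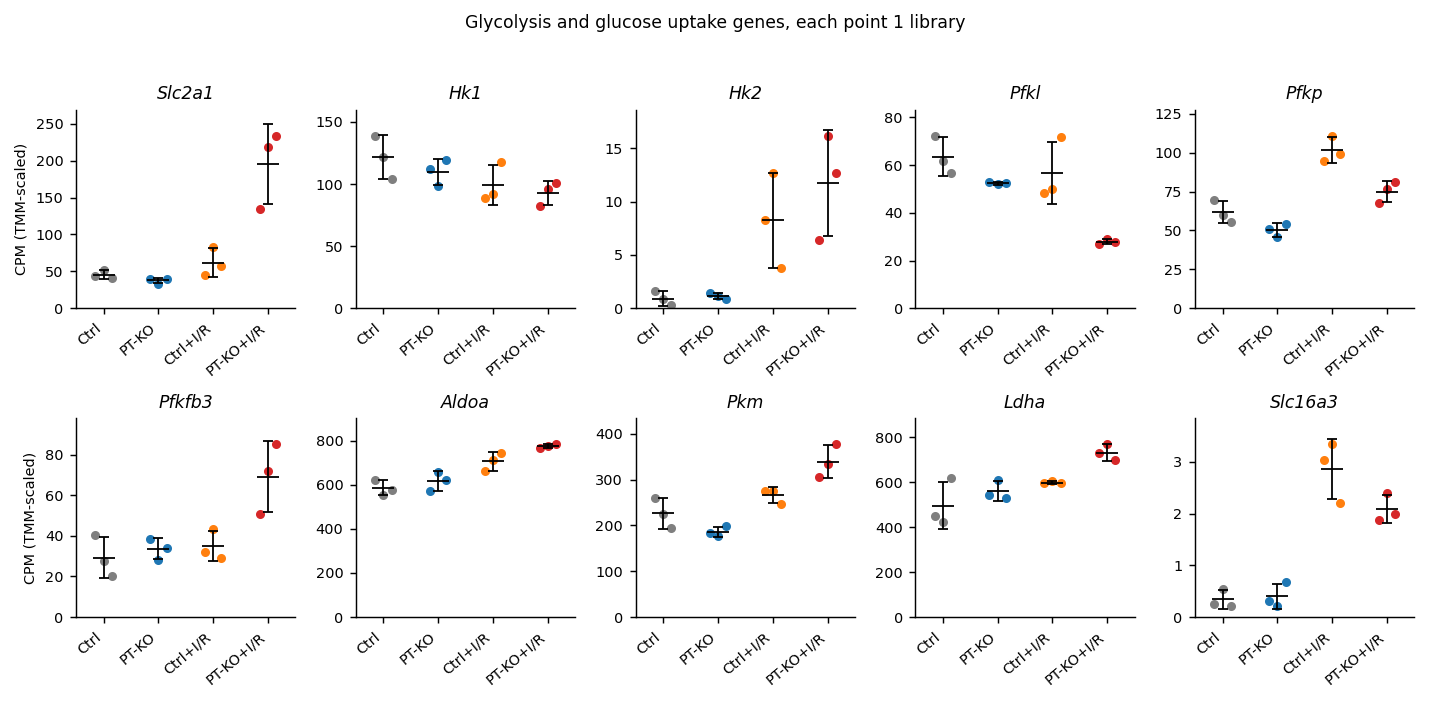
CPM (counts scaled to library size by TMM; each axis starts at 0) of the 10 genes in the 12 libraries; each point is 1 library, the horizontal bar the group mean and the whiskers the SD of 3 libraries. Slc2a1 reaches 134 to 234 CPM in PT-KO+I/R against 45.4 to 83.1 in Ctrl+I/R, while Pfkl falls to 27.0 to 29.1.

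**Figure D2:**
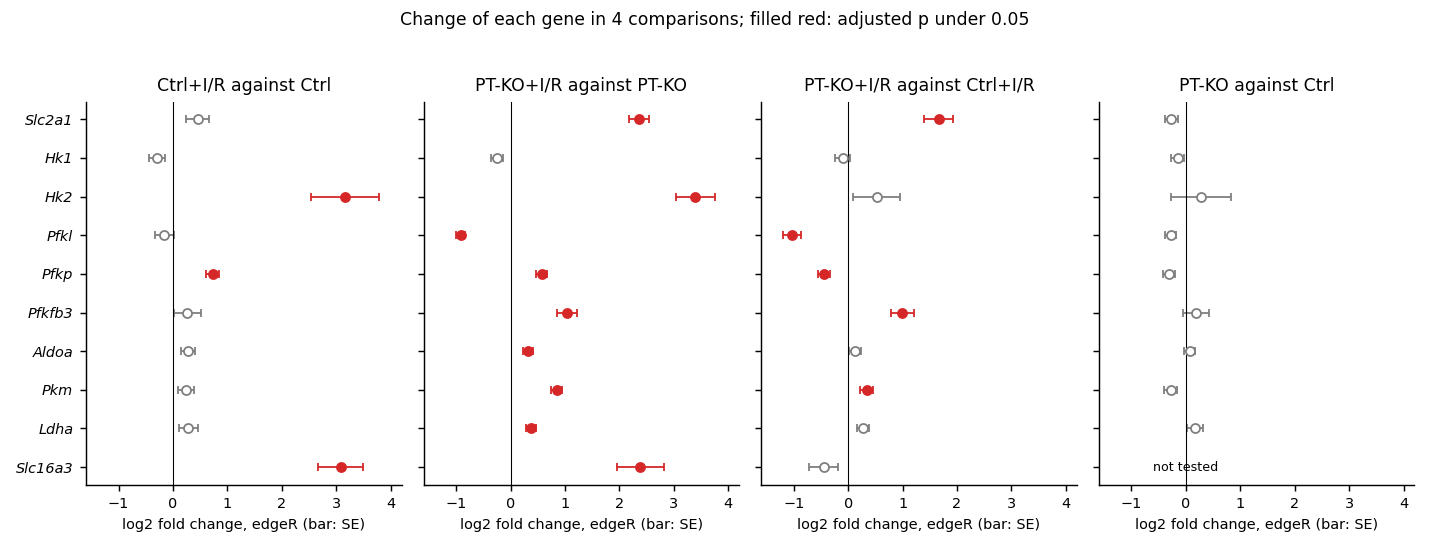
Log2 fold change of each gene (x axis; whiskers are the SE) in the 4 comparisons, first-named group minus second; filled red points had an edgeR adjusted p under 0.05 and open grey points did not. Filled points number 3, 9, 5 and 0 from left to right, and Slc16a3 was too low to test in PT-KO against Ctrl.

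Slc2a1 encodes GLUT1, a facilitative glucose transporter at the basolateral side of tubule cells. Its level was 43.5, 52.2 and 40.8 CPM in Ctrl, 40.2, 33.5 and 39.9 in PT-KO, 45.4, 83.1 and 57.4 in Ctrl+I/R and 134, 218 and 234 in PT-KO+I/R. The 3 PT-KO+I/R libraries were above all 9 others, and Ctrl+I/R overlapped Ctrl. I/R raised Slc2a1 5.14-fold in the knockout (log2 2.36 ± 0.19, SE, edgeR adjusted p = 3.79e-06). In the control genotype the log2 change was 0.45 ± 0.21 and did not pass (edgeR adjusted p = 0.165). The difference between these changes, the interaction of genotype and I/R, was 1.92 ± 0.33 (edgeR adjusted p = 0.00131), and 1.77 with sex in the model (edgeR adjusted p = 0.0105). After I/R, Slc2a1 was 3.15-fold higher in PT-KO than in Ctrl (edgeR adjusted p = 0.00216).

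The 2 hexokinases, which trap glucose in the cell by phosphorylation, went separate ways. Hk1 was at 104 to 139 CPM in Ctrl, 98.7 to 119 in PT-KO, 88.6 to 118 in Ctrl+I/R and 82.0 to 101 in PT-KO+I/R. The groups overlapped in each of the 4 comparisons, though all PT-KO+I/R libraries were below all Ctrl libraries, and no comparison passed (edgeR adjusted p from 0.0619 to 0.575), but without PT-KO 2 the knockout's log2 change of -0.25 became -0.33 with an edgeR adjusted p of 0.0251. Hk2 was at 1.61, 0.857 and 0.277 CPM in Ctrl, 1.39, 1.13 and 0.859 in PT-KO, 8.26, 12.7 and 3.79 in Ctrl+I/R and 6.42, 16.2 and 12.7 in PT-KO+I/R. Every injured library was above every uninjured one, and the 2 injured groups overlapped. The log2 rise was 3.16 ± 0.62 in the control genotype (8.91-fold, edgeR adjusted p = 0.0192; from 2.73 without Ctrl+I/R 2 to 3.88 without Ctrl 1) and 3.39 ± 0.36 in the knockout (10.5-fold, edgeR adjusted p = 2.21e-05). The control call was lost without Ctrl 2 (3.12, edgeR adjusted p = 0.0767) or without Ctrl+I/R 1 (3.15, edgeR adjusted p = 0.0583). With sex in the model it was 4.87 (edgeR adjusted p = 0.0134), which sets it against the lowest control library alone. The rises in the 2 genotypes differed by 0.24 ± 0.79 (edgeR adjusted p = 0.84), an error too wide to show a moderate difference.

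Phosphofructokinase is the committed step of glycolysis, and its subunits moved apart. Pfkl, the liver-type subunit, was at 72.4, 61.6 and 56.6 CPM in Ctrl, 53.1, 51.9 and 52.4 in PT-KO, 48.5, 50.2 and 71.8 in Ctrl+I/R and 27.0, 29.1 and 27.6 in PT-KO+I/R. The PT-KO+I/R libraries were below all others, while Ctrl+I/R overlapped Ctrl. Pfkl fell by 0.92 on the log2 scale after I/R in the knockout (SE 0.08, edgeR adjusted p = 7.88e-06) and was at -0.16 ± 0.17 in the control genotype (edgeR adjusted p = 0.546). The interaction was -0.75 ± 0.20 (edgeR adjusted p = 0.0145; with sex in the model, -0.91, edgeR adjusted p = 0.0221).

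Pfkp, the platelet-type subunit, was at 69.7, 60.1 and 55.5 CPM in Ctrl, 51.2, 45.7 and 54.1 in PT-KO, 94.8, 111 and 99.3 in Ctrl+I/R and 67.7, 76.4 and 81.0 in PT-KO+I/R. It rose 1.65-fold in the control genotype (edgeR adjusted p = 0.0121) and 1.49-fold in the knockout (edgeR adjusted p = 0.00069), without overlap in either genotype. The control call was lost without Ctrl 2 (0.72 on the log2 scale, edgeR adjusted p = 0.0612), and the value was 0.87 with sex in the model (edgeR adjusted p = 0.0103). After I/R, Pfkp was lower in PT-KO than in Ctrl (log2 -0.44 ± 0.11, edgeR adjusted p = 0.0112), from a level that was already at -0.30 ± 0.11 without injury (edgeR adjusted p = 0.254). The interaction was -0.14 ± 0.16 (edgeR adjusted p = 0.52). Part of Pfkp overlaps Pitrm1 on the opposite strand, whose log2 values after I/R were -0.25 in both genotypes, and whether reads were assigned by strand is not given in the sources used here.

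Pfkfb3 makes fructose 2,6-bisphosphate, the strongest activator of phosphofructokinase. It was at 40.3, 27.5 and 20.1 CPM in Ctrl, 38.5, 28.2 and 34.2 in PT-KO, 32.2, 43.2 and 29.2 in Ctrl+I/R and 50.8, 71.8 and 85.2 in PT-KO+I/R. The PT-KO+I/R libraries were above the other 9, which overlapped one another. Pfkfb3 rose 2.06-fold in the knockout (log2 1.04 ± 0.18, edgeR adjusted p = 0.000603), and after I/R it was 1.98-fold higher in PT-KO than in Ctrl (edgeR adjusted p = 0.0068). The log2 change in the control genotype was 0.26 ± 0.25 (edgeR adjusted p = 0.491; with sex in the model, 0.79, edgeR adjusted p = 0.121). The interaction of 0.80 ± 0.35 did not pass (edgeR adjusted p = 0.106). It passed without Ctrl 3 (1.01, edgeR adjusted p = 0.0339) and was 0.25 with sex in the model (edgeR adjusted p = 0.666).

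Aldoa, Pkm and Ldha, the abundant enzymes of the lower pathway, moved by smaller factors. Aldoa splits fructose 1,6-bisphosphate and was at 555 to 622 CPM in Ctrl, 569 to 658 in PT-KO, 661 to 743 in Ctrl+I/R and 766 to 783 in PT-KO+I/R. The injured libraries were above all uninjured ones, and the rise of 1.25-fold passed in the knockout (edgeR adjusted p = 0.0093) but that of 1.21-fold in the control genotype did not (edgeR adjusted p = 0.166). The interaction was 0.06 ± 0.14 (edgeR adjusted p = 0.766).

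Pkm makes pyruvate and was at 260, 224 and 194 CPM in Ctrl, 184, 177 and 198 in PT-KO, 276, 276 and 246 in Ctrl+I/R and 306, 334 and 377 in PT-KO+I/R. Again the PT-KO+I/R libraries were above all others. Pkm rose 1.81-fold in the knockout (log2 0.85 ± 0.10, edgeR adjusted p = 4.95e-05), against a log2 change of 0.24 ± 0.14 in the control genotype (edgeR adjusted p = 0.237). The control change was 0.46 with sex in the model. The interaction of 0.62 ± 0.17 passed (edgeR adjusted p = 0.0178), but did not without PT-KO+I/R 4 (0.54, edgeR adjusted p = 0.0507), with total counts in place of TMM (0.54, edgeR adjusted p = 0.0551) or with sex in the model (0.41, edgeR adjusted p = 0.138). The difference after I/R between PT-KO and Ctrl of 0.34 ± 0.12 (edgeR adjusted p = 0.0477) is at the threshold. It was lost in 5 of the 6 fits that leave out 1 library, all but the one without PT-KO+I/R 2, with values from 0.27 to 0.43, with total counts in place of TMM (0.14, edgeR adjusted p = 0.389) and with no low-count filter (0.33, edgeR adjusted p = 0.0868).

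Ldha reduces pyruvate to lactate. It was at 449, 421 and 617 CPM in Ctrl, 541, 610 and 528 in PT-KO, 595, 605 and 594 in Ctrl+I/R and 730, 768 and 696 in PT-KO+I/R. Ctrl 3 was far above the other 2 control libraries and above Ctrl+I/R. The rise of 1.30-fold in the knockout passed (edgeR adjusted p = 0.00503), and the log2 change of 0.28 ± 0.17 in the control genotype did not (edgeR adjusted p = 0.284; with sex in the model, -0.05). After I/R the log2 difference between PT-KO and Ctrl was 0.28 ± 0.11 (edgeR adjusted p = 0.0652), without overlap. It passed with DESeq2 (DESeq2 adjusted p = 0.0118) and in the fit to all libraries with sex (0.29, edgeR adjusted p = 0.0246). It did not pass in that fit without sex. All injured libraries were male, so the sex term cannot adjust this difference.

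Slc16a3 encodes MCT4, which exports lactate from glycolytic cells. It was at 0.251, 0.551 and 0.222 CPM in Ctrl, 0.316, 0.215 and 0.675 in PT-KO, 3.04, 3.34 and 2.21 in Ctrl+I/R and 1.88, 2.40 and 2.00 in PT-KO+I/R. All injured libraries exceeded all uninjured ones, on 22 to 68 counts against 4 to 11. The rise was 8.46-fold in the control genotype (log2 3.08 ± 0.41, edgeR adjusted p = 0.00745; with sex in the model, 3.65, edgeR adjusted p = 0.0137) and 5.21-fold in the knockout (log2 2.38 ± 0.43, edgeR adjusted p = 0.000691). The interaction was -0.69 ± 0.63 (edgeR adjusted p = 0.425), and the injured groups overlapped.

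Between the genotypes after injury, 5 of the 10 genes were called, with Slc2a1, Pfkfb3 and Pkm higher and Pfkl and Pfkp lower. Over all 15281 genes tested 46.9% were called, 22.5% higher and 24.4% lower, so this share is near that of the whole table. Overlap was absent in 7 of the 10 genes and in 58.7% of all genes. This comparison depends on scaling: total counts in place of TMM shift the median of all genes by -0.21 on the log2 scale and leave 1978 of 7058 called genes higher, against 3444 of 7169 with TMM. Slc2a1, Pfkfb3, Pfkl and Pfkp were called under both. The interaction passed in 3 of 10 genes, Slc2a1, Pkm and Pfkl, and in 30.6% of 16168 genes, again a like share. Before injury none of the 9 genes tested was called between PT-KO and Ctrl by edgeR, as for all 15291 genes (0.0% called). Unadjusted, 3 of the 9 and 16.8% of all genes had a p under 0.05, and DESeq2 called 440 genes and none of these. The 3 were Pfkl, Pfkp and Pkm, with log2 values of -0.28, -0.30 and -0.28. With sex in the model, which leaves Ctrl 3 as the male control, these values were -0.11, -0.14 and -0.06. The groups did not overlap for 3 of the 10, Slc2a1, Pfkl and Pfkp, against 21.0% of all genes. Without Ctrl 3, which leaves 2 female controls against male knockouts, edgeR called Pfkl (-0.36, adjusted p = 0.0383), Pkm (-0.37, adjusted p = 0.0338) and Ldha (0.36, adjusted p = 0.0359). Sex and genotype cannot be told apart in those fits. They are partly mixed in the main fit too, where Ctrl 1 and Ctrl 2 were female and all PT-KO libraries male.

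For 4 steps the ratio of 2 genes within a library was compared, since it does not depend on how libraries are scaled to each other. Each ratio is of counts per length of the main transcript, which multiplies all libraries of a pair by 1 constant and leaves differences between groups as they are in counts. The ratio of Ldha to Ldhb, whose product favours the return of lactate to pyruvate, was 0.261 to 0.389 in Ctrl, 0.359 to 0.387 in PT-KO, 0.455 to 0.574 in Ctrl+I/R and 0.806 to 0.899 in PT-KO+I/R. Each injured group was above its uninjured group, and PT-KO+I/R was above Ctrl+I/R, by 0.75 on the log2 scale. The ratio of Pfkp to Pfkl was 0.793 to 0.929 in the uninjured libraries, 1.24 to 1.99 in Ctrl+I/R and 2.26 to 2.64 in PT-KO+I/R, so every injured library was above every uninjured one. Pkm to Pklr, the pyruvate kinase of liver and red cells that the proximal tubule also uses, fell from 5.80 to 7.36 in Ctrl to 2.98 to 3.76 in Ctrl+I/R, and rose from 5.66 to 7.17 in PT-KO to 13.5 to 30.7 in PT-KO+I/R. Pklr itself rose after I/R in the control genotype (log2 1.22, edgeR adjusted p = 0.00306) and fell in the knockout (-0.67, edgeR adjusted p = 0.0175; without PT-KO 1, -0.59, edgeR adjusted p = 0.0599). Hk2 to Hk1 rose from medians of 0.0049 and 0.008 to 0.0652 and 0.0882. Of the 16 comparisons of these ratios, 11 showed no overlap between groups of 3. For the CPM of single genes, overlap was absent in 21.0 to 70.8% of all genes tested, depending on the comparison. The smallest p that an exact permutation test allows for 3 against 3 is 0.1, and these 11 reached it (exact two-sided, adjusted p = 0.154 over 20 tests).

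**Figure D3:**
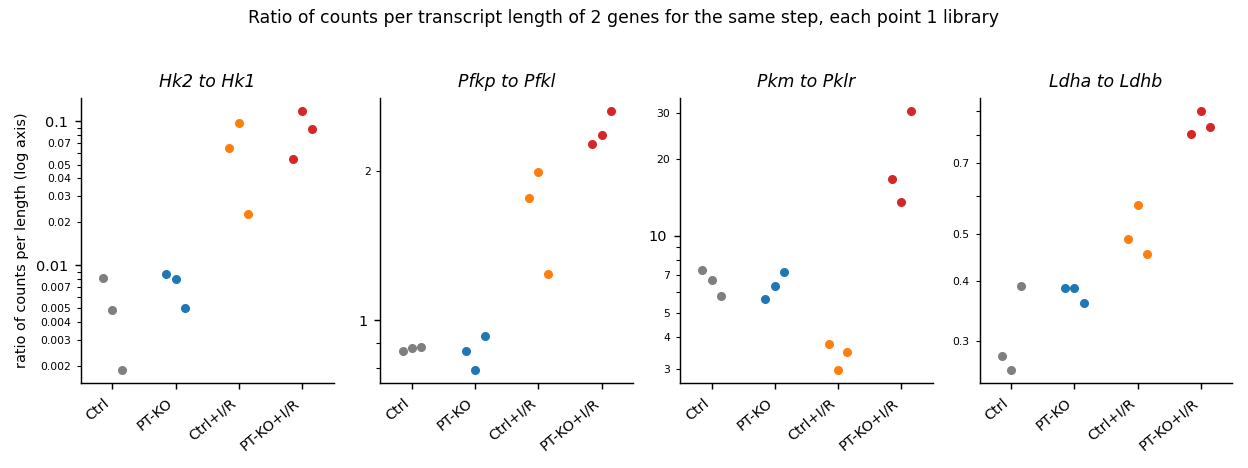
Ratio of the counts per transcript length of 2 genes for the same step (log axis, no unit) in each of the 12 libraries, grouped as Ctrl, PT-KO, Ctrl+I/R and PT-KO+I/R; each point is 1 library. Pfkp to Pfkl is higher with injury in both genotypes, and Pkm to Pklr moves down in Ctrl+I/R and up in PT-KO+I/R.

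The other genes of glucose handling were taken from lists written from general knowledge. Their counts stand against 11.4% of all genes called higher and 7.97% lower in the control genotype, and 32.9% and 32.7% in the knockout. The control counts rest on single libraries: of the 18 calls in the 3 lists of enzymes, transporters and pyruvate entry, only those of Pklr, Slc16a1 and Mpc1 were kept in every fit without 1 library, and 3 calls were left without Ctrl 2 or Ctrl+I/R 1, 4 without Ctrl 1 and 7 without Ctrl 3. Of 23 further glycolysis enzymes, 3 rose and 1 fell in the control genotype (22 tested), and 5 rose and 10 fell in the knockout (21 tested), with medians of -0.01 and -0.38. Hkdc1, a putative further hexokinase, rose in the knockout from 2.45 to 3.22 CPM to 10.5 to 12.8 CPM (log2 2.12, edgeR adjusted p = 5.87e-06). Those that fell in the knockout included Aldoc (-2.99), a further aldolase, and Pfkm (-1.94), the muscle-type phosphofructokinase.

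Of 12 other glucose and lactate transporters, 2 rose and 7 fell in the control genotype, and 2 rose and 10 fell in the knockout. The 2 that rose in both were Slc16a1 and Slc2a3, which encode the lactate transporter MCT1 and the high-affinity glucose transporter GLUT3. The control call of Slc2a3 (1.23, edgeR adjusted p = 0.0362) was lost in 5 of the 6 fits without 1 library and with sex in the model (1.44, edgeR adjusted p = 0.0615). Slc16a1 went from 22.3, 23.1 and 23.8 CPM in Ctrl to 43.6, 48.0 and 40.2 in Ctrl+I/R, and from 23.4, 24.6 and 26.2 in PT-KO to 295, 203 and 222 in PT-KO+I/R (log2 3.27, edgeR adjusted p = 8.41e-08). Slc2a2, which encodes GLUT2, the exit for glucose reabsorbed by the proximal tubule, went the other way. It was at 299 to 337 CPM in Ctrl, 251 to 263 in PT-KO, 191 to 223 in Ctrl+I/R and 10.7 to 26.2 in PT-KO+I/R (log2 -3.96 in the knockout, edgeR adjusted p = 9.12e-07). Per kilobase, mean Slc2a2 was 57.8 CPM against 14.0 for Slc2a1 in Ctrl, and 3.03 against 59.9 in PT-KO+I/R, so the order of the 2 transporters was inverted. The luminal cotransporter Slc5a1 fell in the knockout as well (-2.0), and Slc5a2 had like values in both genotypes (-0.99 in the knockout and -1.12 in the control genotype).

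**Figure D4:**
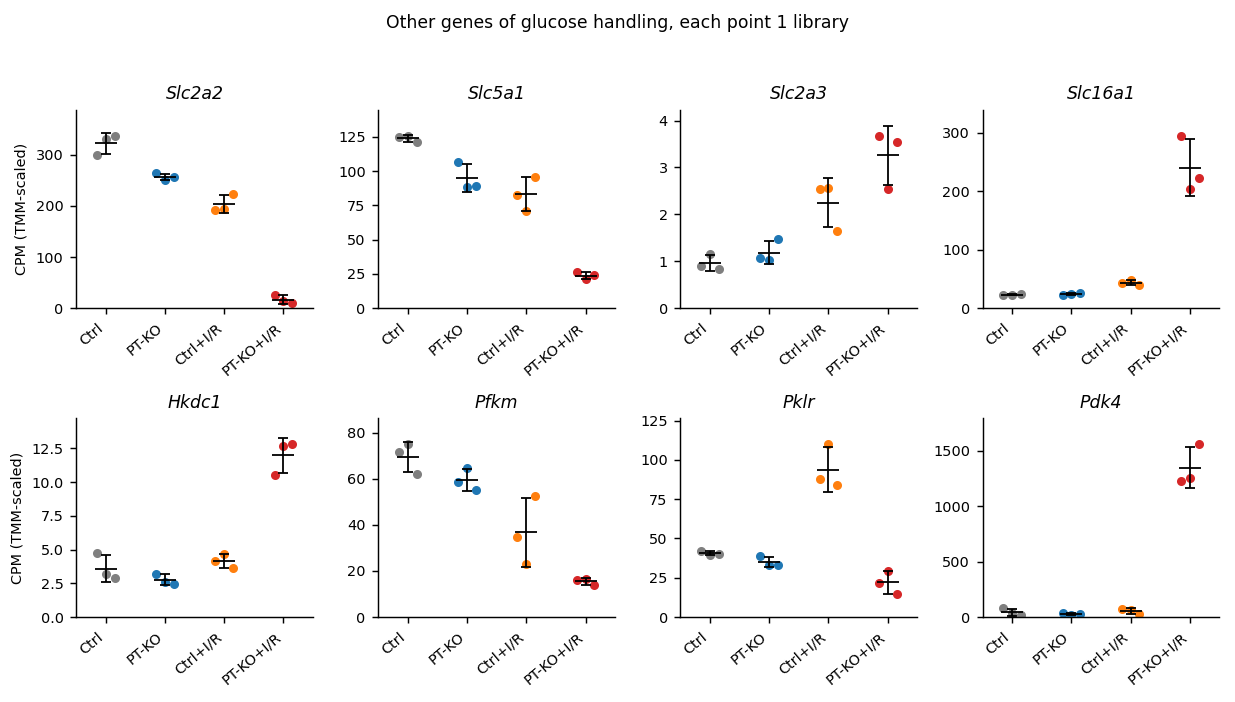
CPM (scaled by TMM; each axis starts at 0) of 8 other genes of glucose handling in the 12 libraries; points are libraries, bars the group mean and whiskers the SD of 3 libraries. Slc16a1, Hkdc1 and Pdk4 are highest in PT-KO+I/R, Slc2a2, Slc5a1 and Pfkm lowest there, and Pklr is highest in Ctrl+I/R.

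At the branch into mitochondria, 1 of 13 genes rose and 4 fell in the control genotype, and 2 rose and 10 fell in the knockout. Pdk4, a kinase that shuts pyruvate dehydrogenase, was at 27.6 to 75.3 CPM in Ctrl+I/R and 1230 to 1560 in PT-KO+I/R (log2 4.62, edgeR adjusted p = 0.000201). In PT-KO+I/R against PT-KO, Pdk1, Pdk2 and Pdk3 fell by 1.99, 2.19 and 1.59 on the log2 scale. Between the injured groups, their values without 1 library were -1.43 to -0.87, -1.30 to -0.81 and -0.87 to -0.67. There the calls were kept in 2, 3 and 6 of the 6 such fits. All 4 gluconeogenesis genes were called lower in the knockout after I/R, among them G6pc (-2.18) and Fbp1 (-2.20). The call of Pck1 (-0.62, edgeR adjusted p = 0.044), whose groups overlapped, was lost with DESeq2 (-0.63, DESeq2 adjusted p = 0.14) and in 4 of the 6 fits without 1 library. For this list, only G6pc was called in the control genotype (-2.13, edgeR adjusted p = 0.0481), and it failed to pass in 5 of the 6 fits without 1 library and with sex in the model (-1.87, edgeR adjusted p = 0.0977).

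Regulators and targets of the hypoxia response did not move as 1 group. In the injured knockout against injured controls, 6 of 14 genes in a joint list of hypoxia and MYC regulators were higher and 1 lower. The 6 were Hif1a, Epas1, Vhl, Egln2, Mlxip and Txnip, and Egln3 was lower. The list is thus not of the hypoxia response alone. Of 13 tested HIF targets outside glycolysis, 5 were higher and 3 lower, where 22.5% of all genes were higher and 24.4% lower. Hif1a RNA was higher in the knockout (log2 0.65, edgeR adjusted p = 0.00491). Ndrg1 (1.71), Adm (1.66), Ddit4 (1.10) and Kdm3a (0.96) were higher, whereas P4ha1 (-1.40) and Vegfa (-0.81) were lower. Myc rose after I/R in the knockout (3.99, edgeR adjusted p = 2.75e-06) and in the control genotype (2.80, edgeR adjusted p = 0.0267, a call that held in 2 of the 6 fits without 1 library), and it did not pass between the injured groups (0.89, edgeR adjusted p = 0.17).

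In whole tissue, fewer cells of a type and less RNA per cell cannot be told apart, and cell markers moved with the genes above. Of all genes, 11.4% were called higher and 7.97% lower after I/R in the control genotype. In the knockout these shares were 32.9% and 32.7%, and between the injured groups 22.5% and 24.4%. Summed over 8 genes, proximal tubule markers were at 3740 to 9060 CPM in Ctrl+I/R and 2400 to 3120 in PT-KO+I/R, with 4 of 8 called lower after I/R in the control genotype and 8 of 8 in the knockout. Neutrophils are rich in glycolytic enzymes, and their 6 markers summed to 1.46 to 2.33 CPM in Ctrl, 0.92 to 2.71 in PT-KO, 9.80 to 42.9 in Ctrl+I/R and 56.4 to 88.3 in PT-KO+I/R. They were called higher after I/R in 5 of 5 tested and 6 of 6, and Mmp8 was at 0 in all Ctrl libraries. Macrophage markers (5 genes) were at 75.1 to 120 CPM in Ctrl+I/R and 49.0 to 56.6 in PT-KO+I/R, with 4 of 5 lower and Cd68 higher (log2 0.76). Hk3, the hexokinase of leukocytes, was at 1.33 to 2.05 CPM in Ctrl+I/R and 0.312 to 0.685 in PT-KO+I/R. Endothelial markers, from a cell type that uses GLUT1, were at 242 to 269 and 337 to 341 CPM, with 3 of 4 higher, and the 5 erythroid markers at 82.1 to 215 and 41.9 to 49.5 CPM, with 4 of 5 lower. The part of these cells in the changes of Slc2a1, Hk2, Pfkfb3 and the other genes was not tested.

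Over the 12 libraries, the genes most like Slc2a1 in log2 CPM were Sh2d5, Zfp52 and Ncoa6 (Pearson r 0.987, 0.986 and 0.986), those most like Hk2 were Atf3, Myh9 and Ccn1 (0.988, 0.984 and 0.98), and among those most like Slc16a3 were Mthfd2 and Ivl (0.979 and 0.976). For Pfkl they were Zfp324, Gm4450 and Epb41l3 (0.98, 0.975 and 0.974). These values describe the 4 group levels that all genes share and carry no test. Among the 10 genes, Hk2 and Slc16a3 were the most alike (r = 0.90), and Slc2a1 and Pfkl the most opposed (r = -0.84).

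Reads shared with pseudogenes could bias these genes. In the GENCODE M21 transcripts, 2 of the 10 genes had annotated copies elsewhere with at least 95% identity over at least 100 bases. Ldha had 5, of which 3 held counts, together 0.0436 to 0.27% of the Ldha count of a library, and Pkm had Gm6560, with 0.303 to 0.972%. Adding these counts to Ldha and Pkm changed no call of the 10 genes. Pkm is also overlapped on its own strand by Gm49759, which held 1923 counts over all libraries and at most 420 in 1. How reads that map to several places were treated is not given in the sources used here, so levels of Ldha and Pkm could be underestimated.

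On GRCm38 (GENCODE M21), reads were counted over genes at chr4:119108711-119137983 (Slc2a1), chr10:62268855-62379908 (Hk1), chr6:82725025-82774454 (Hk2), chr10:77986947-78010083 (Pfkl), chr13:6579768-6648777 (Pfkp), chr2:11471433-11554077 (Pfkfb3), chr7:126795234-126800751 (Aldoa), chr9:59656368-59679375 (Pkm), chr7:46841475-46855627 (Ldha) and chr11:120948480-120960868 (Slc16a3). The positions are those of the annotation, which may differ from the one the counts were made with.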

How the data were processed

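RNA sequencing of kidney cortex was deposited by the authors as 1 table of raw read counts per gene and library. The submitters' processing notes name HISAT2 2.0.4 and mm10. The counting program, annotation, strand setting and treatment of multi-mapped reads are not given in the sources used here. Symbols were assigned by GENCODE M21 to 55141 of 55487 identifiers, and promoter sequences came from RefSeq.

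In R 4.3.3, low counts were removed with filterByExpr, TMM factors were set and edgeR 4.0.16 quasi-likelihood models were fitted, each comparison with its own 6 libraries and the interaction with all 12. Calls needed an adjusted p under 0.05 (Benjamini-Hochberg, over all genes tested). The SE was derived from the fold change and F. Leaving out each library, DESeq2 1.42.0, total counts, no filter, a replicate block, a fit to all 12 libraries and sex were tried as alternatives. Adding the counts of copies was chosen after seeing the data. Printed ratios were divided by transcript length, tests used log2 ratios of counts plus 0.5, and p-values were adjusted over 20 tests, of which those of 1 further pair are not reported here. The fits were tested on simulated data.

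The members and lists were chosen with earlier results of these data known. Named were all 10 genes, genes of the lists called in the interaction or between the injured groups, ratio partners, and the genes most like a member. Slc2a3, Slc5a2, G6pc, Fbp1, Pck1, Mpc1 and Myc fall outside this rule and were chosen after their values were seen. Replicate numbers were not accepted as pairs: over 12 same-numbered pairs the correlation of deviations had a median of -0.022 (range -0.188 to 0.184), with 1 pair over 0.1.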

Additional observations from a re-analysis of the deposited data

Results flagged for a closer look

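The response to I/R differed between the genotypes, by the interaction term of the edgeR fit to all 12 libraries, in 3 of the 10 genes: Slc2a1 (log2 1.92 ± 0.33, SE, edgeR adjusted p = 0.00131), Pfkl (-0.75 ± 0.20, edgeR adjusted p = 0.0145) and Pkm (0.62 ± 0.17, edgeR adjusted p = 0.0178). That of Pkm was lost with sex in the model (0.41, edgeR adjusted p = 0.138), with total counts (0.54, edgeR adjusted p = 0.0551) and without PT-KO+I/R 4 (0.54, edgeR adjusted p = 0.0507). It also differed in 17 genes of the lists of other glycolysis enzymes (22 tested), other transporters (12) and pyruvate entry (13), where 30.6% of all genes were called, of which 9 were called without each library in turn. In the joint list of hypoxia and MYC regulators, 4 of 14 were called higher (Hif1a, Vhl, Mlxip and Txnip) and 1 lower (Egln3). Of 13 tested HIF targets, 4 were higher and 2 lower, where 14.3% of all genes were higher and 16.4% lower. Among the 9, more positive in the knockout were Pdk4 (5.39, edgeR adjusted p = 0.000282), Slc16a1 (2.35, edgeR adjusted p = 2.16e-05) and Hkdc1 (1.92, edgeR adjusted p = 0.00088). More negative were Slc2a2 (-3.27, edgeR adjusted p = 8.38e-05), the fructose transporter Slc2a5 (-2.83, edgeR adjusted p = 0.00116), the monocarboxylate cotransporter Slc5a8 (-2.28, edgeR adjusted p = 0.00854, but -1.56 and 0.055 with sex in the model), Pklr (-1.87, edgeR adjusted p = 0.000608), Slc5a1 (-1.42, edgeR adjusted p = 0.000207) and Pdk3 (-1.16, edgeR adjusted p = 0.00139). Groups of 3 libraries were not screened for single outlying libraries.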

How the results depend on the processing

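Of 687 refitted fold changes of the 10 genes, 635 kept direction and side of the threshold, 24 reversed, 19 lost and 9 gained a call. The causes were not tested. Without 1 library, genes called ranged from 379 to 4061 for Ctrl+I/R against Ctrl (1 to 3 of the 10 genes), from 4918 to 7509 between the injured groups (4 to 5) and from 0 to 1930 for PT-KO against Ctrl (0 to 3, the upper values without Ctrl 3). The fit to all 12 libraries called 4938 genes for Ctrl+I/R against Ctrl, and fewer with sex in the model, which leaves Ctrl 3 as the male control. For PT-KO against Ctrl, total counts called 1 gene, DESeq2 440 and no filter 388. With total counts the median of all genes moved by 0.12 in Ctrl+I/R against Ctrl, where 2346 of 3112 calls were higher (1778 of 3019 with TMM), and by -0.12 in PT-KO against Ctrl; 1591 of 4588 interaction calls were higher (2305 of 4953 with TMM). The replicate block, on numbers that share nothing else, called 1683 genes and 1 of the 10 between the injured groups, where Slc2a1 was 1.36 (edgeR adjusted p = 0.0546), Pfkp -0.50, Pfkfb3 0.89 and Pkm 0.38, 1378 and 1 for PT-KO against Ctrl, and 3215 for the interaction. It called Hk1 lower in Ctrl+I/R against Ctrl (-0.52, edgeR adjusted p = 0.0436), lost the calls of Pfkl in the interaction (-0.65, edgeR adjusted p = 0.0728) and of Aldoa in the knockout (0.27, edgeR adjusted p = 0.0692), and reversed Pfkfb3 in PT-KO against Ctrl (-0.02) and Ldha in the interaction (-0.13). With sex, 3233 interactions were called. Sex reversed Pfkl (0.00) and Ldha (-0.05) in Ctrl+I/R against Ctrl, Hk1 (0.08), Ldha (-0.14) and Gfer (-0.03) in PT-KO against Ctrl, and Hk1 (-0.18) and Hk2 (-1.48) in the interaction. Total counts reversed Aldoa between the injured groups (-0.08) and PT-KO against Ctrl (-0.06), and Hk1 (-0.03) and Aldoa (-0.02) in the interaction. Without 1 library, sign changed for Hk1 between the injured groups (-0.19 to 0.03), for Hk2 (-0.15 to 0.99), Pfkfb3 (-0.02 to 0.49), Gfer (-0.03 to 0.33) and the ratios Pfkp to Pfkl (-0.08 to 0.04) and Pkm to Pklr (-0.14 to 0.03) in PT-KO against Ctrl, and for Hk1 (-0.06 to 0.18), Hk2 (-0.49 to 0.67) and Ldha (-0.07 to 0.22) in the interaction. None of these reversed values was called. Counts of Hk2 and Slc16a3 without injury, 4 to 32 per library, limit the precision of their folds.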

Other observations

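Markers of other cell types of the cortex moved with I/R as well. Their counts stand against 11.4% of all genes called higher and 7.97% lower in the control genotype. In the knockout these shares were 32.9% and 32.7%, so counts of the 2 genotypes are not directly comparable. Thick ascending limb markers (4 genes) summed to 4470 to 6050 CPM in Ctrl, 4600 to 5420 in PT-KO, 1420 to 3780 in Ctrl+I/R and 1930 to 2370 in PT-KO+I/R, and 4 of 4 were called lower after I/R in the knockout and 0 of 4 in the control genotype. Of the distal tubule markers, 4 of 4 were lower in the control genotype, and in the knockout 3 were lower and 1 higher. Lower after I/R were also 1 and 4 of 4 principal cell markers, 3 and 3 of 4 intercalated cell markers and 3 and 1 of 4 podocyte markers, for the control genotype and the knockout in that order. Fibroblast markers were higher in 2 of 4 and 1 of 4. T cell markers summed to 1.33 to 7.64 CPM in Ctrl+I/R and 0.171 to 0.387 in PT-KO+I/R, and none was tested in the knockout because of low counts.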
